A study of Mus musculus with 18 samples.

Results

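The genes described here are 10 cytokine and receptor genes of the IL-6, IL-10, IL-12 and IL-23 axes, chosen by symbol from a list: Il6, Il10, Il12a, Il12b, Il23a, Il23r, Il27, Ebi3, Il15 and Il10ra. All 10 were found among the 25926 genes of the expression table. The samples were 18 RNA-seq libraries of bone marrow-derived macrophages (BMDMs) from C57BL/6 mice, grown for 7 days with 50 ng/mL M-CSF and then cultured above kidney tubular epithelial cells (TECs) from wild-type mice, across a Transwell membrane with 0.4 μm pores. In the 6 NC samples the BMDMs received PBS and the labels name no crystal treatment of the TECs. In the 6 COM samples the BMDMs received PBS and the TECs had been given 100 μg/mL calcium oxalate monohydrate crystals (COM) for 24 h. In the 6 COM+Met samples the TECs were treated in the same way and the BMDMs received 5 mM Met, an agent whose name the labels do not spell out, for 24 h. The methods give the C57BL/6J mice an age of 6 to 8 weeks. Their sex, the number of animals behind each BMDM sample and any pooling were not given in the sources used here for these libraries, so the spread between samples may be technical in part. Values are FPKM, that is, fragments scaled to the length of the transcript and to the mapped fragments of the library. Levels can be compared between genes only as far as the transcript lengths used hold, and these were not given in the sources used here.

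IL-12, IL-23, IL-27 and IL-35 are cytokines made of paired subunits that are shared between them. Il12b encodes p40, which pairs with p35 (Il12a) to form IL-12 and with p19 (Il23a) to form IL-23, while Ebi3 pairs with p28 (Il27) to form IL-27 and with p35 to form IL-35. Activated macrophages are a main source of IL-6 and IL-12, and IL-10, acting through IL-10Rα (Il10ra) and STAT3, is a classical brake on them. IL-15 is presented to lymphocytes on its own receptor chain, and the IL-23 receptor (Il23r) is best known from T cells and innate lymphoid cells.

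RefSeq promoter windows (GRCm38.p6, 250 bases before to 50 bases after a start) matched 5 of the 10 genes, in 6 windows, since Il12a has 2 starts. The genes without a window were Il10, Il10ra, Il27, Il15 and Il23a. The 250 bases before the start are shown for 4 genes that were higher in COM than in NC, to set the p40 and p35 genes of IL-12 beside Il6 and Il23r. Motifs of 4 types were searched on either strand in all 6 windows, namely kappa B (GGGNNNNNCC), ISRE (GAAANNGAAA), GAS (TTCNNNGAA) and AP-1 (TGANTCA), and matched bases are in capitals. The Il12a stretch lies before the second start, inside an intron of the longer transcript.
Il6, chr5:30012864-30013113, plus strand: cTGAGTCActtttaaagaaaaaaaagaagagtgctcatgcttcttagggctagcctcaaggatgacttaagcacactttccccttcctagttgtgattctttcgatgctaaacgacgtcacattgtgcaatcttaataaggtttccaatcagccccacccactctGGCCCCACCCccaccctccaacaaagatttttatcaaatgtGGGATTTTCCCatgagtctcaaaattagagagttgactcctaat
Il12b, chr11:44399813-44400062, plus strand: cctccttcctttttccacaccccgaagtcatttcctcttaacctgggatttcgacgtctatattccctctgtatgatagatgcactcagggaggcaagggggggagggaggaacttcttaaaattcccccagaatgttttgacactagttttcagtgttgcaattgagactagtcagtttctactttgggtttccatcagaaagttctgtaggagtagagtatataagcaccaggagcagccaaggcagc
Il12a, chr3:68691174-68691423, plus strand: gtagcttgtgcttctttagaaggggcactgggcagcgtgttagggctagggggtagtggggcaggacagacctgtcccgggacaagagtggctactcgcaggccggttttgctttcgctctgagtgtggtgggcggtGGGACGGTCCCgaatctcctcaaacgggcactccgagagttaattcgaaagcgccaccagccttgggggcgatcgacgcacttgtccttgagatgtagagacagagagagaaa
Il23r, chr6:67491856-67492105, minus strand: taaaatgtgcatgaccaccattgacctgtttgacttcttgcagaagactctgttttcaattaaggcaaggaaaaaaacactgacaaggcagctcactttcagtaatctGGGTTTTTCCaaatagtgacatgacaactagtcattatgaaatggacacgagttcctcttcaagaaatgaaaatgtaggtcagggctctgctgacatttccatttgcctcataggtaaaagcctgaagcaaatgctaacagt
The Il6 window held kappa B matches at -85 to -76 and at -44 to -35, the latter overlapping a match on the other strand at -43 to -34, and an AP-1 match at -249 to -243. The second Il12a window held overlapping kappa B matches on the opposite strands at -113 to -104 and -112 to -103, and another at 18 to 27. Il23r had a kappa B match at -142 to -133, and Ebi3 had overlapping matches at -44 to -35 and -43 to -34 and further ones at 15 to 24 and 36 to 45. The Il12b window and the first Il12a window held none of the 4 motifs, though a site that departs from these fixed letters would not be found. A kappa B match was present in 50.8% of all 32851 promoter windows of this length, an ISRE match in 3.44%, a GAS match in 8.3% and an AP-1 match in 7.81%, so these matches describe the letters only.

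Macrophage identity was checked on 9 marker genes, and all 9 averaged at least 1 FPKM in each group, with Lyz2, the macrophage lysozyme, at 11610 FPKM in NC, 9517 in COM and 12776 in COM+Met. Other markers differed more between groups. Adgre1 averaged 112 FPKM in NC, 577 in COM and 586 in COM+Met, Fcgr1 8.05, 83.7 and 62.6, and Mertk 19.0, 9.93 and 13.7. C1qa averaged 1.09 FPKM in COM, with a lowest sample of 0.306. Within groups, the correlation of log2(FPKM + 1) between samples ran from 0.938 to 0.995 in NC, from 0.888 to 0.995 in COM and from 0.989 to 0.995 in COM+Met. The samples NC-5 and NC-6 stood apart from the other NC samples. The COM samples were split. COM-1, COM-2 and COM-3 formed a set, COM-4 and COM-5 correlated with the COM+Met samples at 0.977 to 0.982 but with COM-1 to COM-3 at 0.948 to 0.951, and COM-6 stood apart from all of them. Results whose call turned on these samples are given below with and without them. The depth of the libraries is unknown, because the table holds FPKM only.

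**Figure D1:**
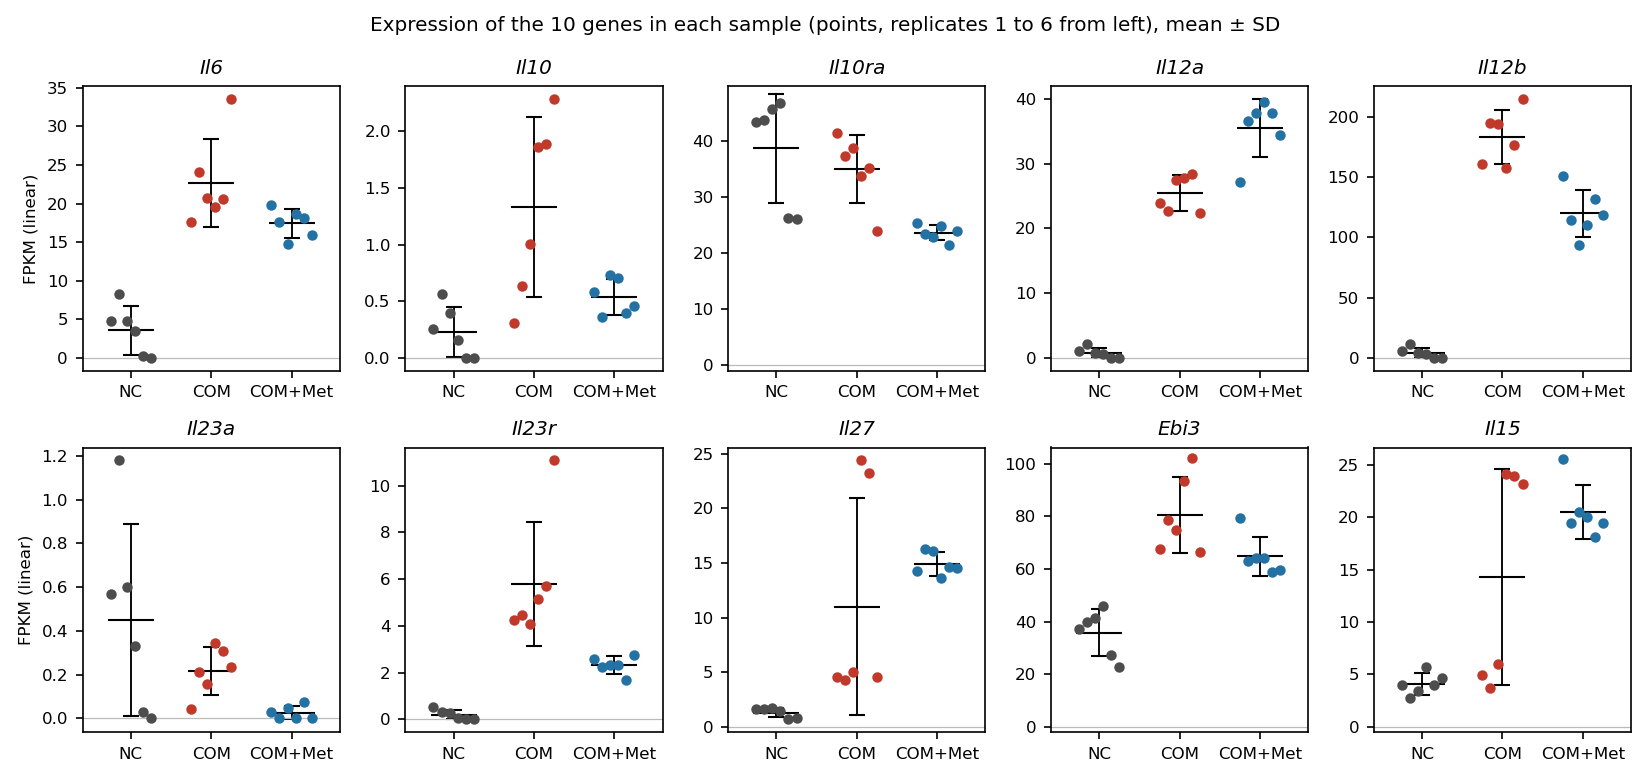
FPKM (linear axis, separate for each panel) of the 10 genes in the 6 NC, 6 COM and 6 COM+Met samples. Points are samples in replicate order, and bars give the mean ± SD. Il12b and Il12a lie near 0 in NC and far above it in the other groups, and Il15 and Il27 fall into a low and a high set among the COM samples.

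In NC the order of the 10 genes by mean level was Il10ra, Ebi3, Il12b, Il15, Il6, Il27, Il12a, Il23a, Il10 and Il23r, from 38.7 ± 9.76 FPKM (SD, n = 6) for Il10ra to 0.194 ± 0.205 for Il23r. Of the neighbours in that order, Ebi3 and Il12b alone had ranges that did not overlap. In COM the order was Il12b, Ebi3, Il10ra, Il12a, Il6, Il15, Il27, Il23r, Il10 and Il23a, from 183 ± 22.2 FPKM for Il12b to 0.216 ± 0.109 for Il23a. There the ranges were separate between Il12b and Ebi3, between Ebi3 and Il10ra and between Il23r and Il10. In COM+Met the order was Il12b, Ebi3, Il12a, Il10ra, Il15, Il6, Il27, Il23r, Il10 and Il23a, and the neighbours that overlapped were Il10ra with Il15, Il15 with Il6, and Il6 with Il27. The p40 gene thus stood behind Il10ra and Ebi3 in NC and at the top of both groups with crystal-treated TECs, while the p19 gene was last in both of these groups.

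The comparison of COM with NC asked what coculture with crystal-treated TECs did to these genes in macrophages. The IL-12 subunit genes showed the widest separation, with Il12b 44.6-fold and Il12a 36.0-fold higher by the ratio of group means. Il6, Il23r, Il27 and Ebi3 were also higher in every COM sample than in any NC sample. Il15 was higher on average, with overlapping groups, and neither Il23a nor Il10ra differed beyond the spread between samples. Changes below are differences of mean log2(FPKM + 1) with their standard error (SE), which understate the change of genes near 0 FPKM, and a gene was called when its limma adjusted p was below 0.05 and its change at least 2-fold.

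Of the 10 genes, 8 reached the filter of a mean of 1 FPKM over the 12 samples, and Il10 and Il23a did not. Among the 8, 7 were called higher and 0 lower in COM, against 5.99% of the 10900 genes tested called higher and 11.7% called lower. Il12a and Il23r reached the filter only through the COM samples, so the count is a description. Without NC-5 and NC-6 it was 5, as Ebi3 and Il15 were then not called, and without COM-4 to COM-6 it was 6, as Il15 was not. The groups did not overlap for 6 of the 8, all higher in COM, against 8.6% of the genes tested. The median change of all genes tested was -0.27 on the log2 scale, and it was 0.00 after median-of-ratios scaling, which left 7 of the 8 called higher. Among all genes tested, 653 were called higher and 1273 lower as deposited, and 864 and 821 after that scaling. In bulk RNA, fewer cells of a type and less RNA per cell cannot be told apart.

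Il12b, at chr11:44400063-44414033 of GRCm38, was measured at 5.80, 11.5, 4.11, 2.85, 0.244 and 0.142 FPKM in the NC samples, in replicate order here and below. It stood at 161, 195, 195, 158, 177 and 215 FPKM in the COM samples. Every COM sample exceeded the highest NC sample by more than 10-fold, and NC-5 and NC-6 were the lowest. The change was 5.65 (SE 0.50, limma adjusted p = 2.11e-06).

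Il12a, at chr3:68690644-68698547, was at 1.06, 2.06, 0.634, 0.482, 0 and 0 FPKM in NC and at 23.9, 22.6, 27.6, 27.8, 28.5 and 22.4 FPKM in COM. The COM samples lay close together and far above NC, where NC-5 and NC-6 were listed at 0. The change was 4.06 (SE 0.24, limma adjusted p = 7.42e-08). The ratio of Il12b to Il12a was 5.45 to 6.48 in the 4 NC samples in which Il12a was above 0 and 5.69 to 9.62 in COM, so the p40 gene exceeded the p35 gene in each of these samples.

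Il23a, the p19 gene of IL-23 at chr10:128296139-128298752, stayed low. It was at 0.567, 1.18, 0.599, 0.330, 0.0286 and 0 FPKM in NC and at 0.0423, 0.212, 0.157, 0.344, 0.309 and 0.232 FPKM in COM. The groups overlapped, and the difference of -0.21 had a two-sided exact permutation p of 0.299. Without NC-5 and NC-6 the difference was -0.44 (exact permutation p = 0.00952). The ratio of Il12b to Il23a was 6.86 to 10.2 in the 5 NC samples with Il23a above 0 and 459 to 3802 in COM. At these levels Il23a gives little precision, and its ratios rest on denominators below 1.2 FPKM.

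**Figure D2:**
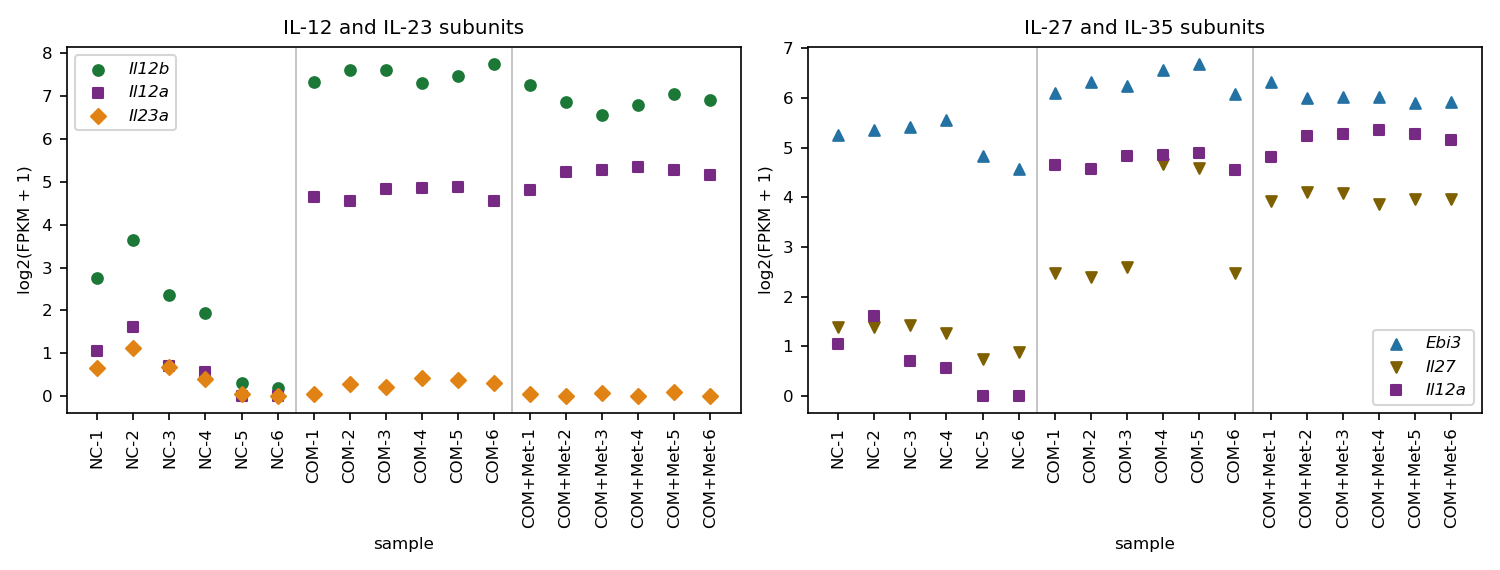
log2(FPKM + 1) of the subunit genes in each of the 18 samples, with Il12b, Il12a and Il23a on the left and Ebi3, Il27 and Il12a on the right. Il12b and Il12a are high in all COM and COM+Met samples while Il23a stays near 0, and Il27 is high in COM-4, COM-5 and all COM+Met samples.

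Il6, at chr5:30013114-30019981, encodes the acute-phase cytokine IL-6. It was at 4.76, 8.24, 4.78, 3.43, 0.204 and 0 FPKM in NC and at 17.6, 24.0, 20.7, 19.6, 20.6 and 33.5 FPKM in COM. NC-5 and NC-6 were again the lowest and COM-6 the highest. The change was 2.75 (SE 0.49, limma adjusted p = 0.000544).

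Il23r, at chr6:67422932-67491855 on the minus strand, was at 0.530, 0.291, 0.259, 0.0574, 0.0260 and 0 FPKM in NC. In COM it was at 4.26, 4.46, 4.08, 5.14, 5.70 and 11.1 FPKM, with COM-6 well above the others. The change was 2.45 (SE 0.20, limma adjusted p = 1.10e-06). The receptor gene was therefore present in COM samples in which the p19 gene of its ligand was at 0.344 FPKM or less. Markers of T, NK and innate lymphoid cells summed to at most 4.08 FPKM in NC, 1.70 in COM and 0.913 in COM+Met over 13 genes. Of these 13, 7 were at 0 in every COM sample (Cd3d, Cd3g, Cd8a, Nkg7, Gzma, Il17a and Bcl11b).

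Ebi3, at chr17:55952640-55957022, ranged from 22.7 to 45.9 FPKM in NC (median 38.4) and from 66.6 to 102 FPKM in COM (median 76.6). Of the 5 subunit genes it alone exceeded 20 FPKM in NC. The change was 1.17 (SE 0.18, limma adjusted p = 0.000159), and it was 0.94 (limma adjusted p = 0.000437), under 2-fold, without NC-5 and NC-6. Its exons share 270 of 1154 bases with an antisense gene, Gm16712, and the strand used in counting was not given in the sources used here, so reads of the pair may not be separable.

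Il27, the p28 gene at chr7:126589010-126594941 on the minus strand, was at 1.62, 1.61, 1.68, 1.42, 0.676 and 0.844 FPKM in NC. In COM it was at 4.55, 4.26, 5.02, 24.4, 23.2 and 4.58 FPKM. COM-4 and COM-5 were far above the other COM samples, and all COM samples were above all NC samples. The change was 2.02 (SE 0.42, limma adjusted p = 0.0015). It was 2.73 without COM-1 to COM-3 and 1.30 without COM-4 to COM-6, and it passed the test each time. On the opposite strand Apobr shares 103 of the 1021 exon bases of Il27, and Apobr averaged 51.8 FPKM in NC, 33.0 in COM and 35.8 in COM+Met. The ratio of Ebi3 to Il27 was 22.9 to 40.6 in NC and 3.83 to 18.5 in COM.

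Il15, at chr8:82331632-82403222 on the minus strand, encodes a growth factor for NK cells and memory CD8 T cells. It was at 3.99, 2.74, 3.41, 5.69, 3.97 and 4.69 FPKM in NC and at 4.91, 3.71, 6.04, 24.1, 23.9 and 23.2 FPKM in COM. COM-1 to COM-3 lay within or next to the NC range and COM-4 to COM-6 far above it. The change was 1.26 (SE 0.43, limma adjusted p = 0.0264). It was 2.31 (limma adjusted p = 3.52e-06) without COM-1 to COM-3 but 0.22 (limma adjusted p = 0.343) without COM-4 to COM-6. It also missed the threshold when NC-2, COM-4, COM-5 or COM-6 alone was left out (1.18, 1.05, 1.05 and 1.06, with limma adjusted p of 0.0529, 0.0606, 0.0621 and 0.0539) and without NC-5 and NC-6 (1.31, limma adjusted p = 0.0663).

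Il10, at chr1:131019845-131024974, encodes the anti-inflammatory cytokine IL-10. It was at 0.254, 0.565, 0.397, 0.162, 0 and 0 FPKM in NC and at 0.310, 0.638, 1.01, 1.86, 1.89 and 2.28 FPKM in COM. Its level thus stayed under 2.3 FPKM in every sample, with COM-4 to COM-6 the highest. The difference of 0.87 had a two-sided exact permutation p of 0.00866, and without COM-4 to COM-6 it was 0.42 (exact permutation p = 0.0833).

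Il10ra, at chr9:45253837-45269149 on the minus strand, encodes the ligand-binding chain of the IL-10 receptor. It was at 43.5, 43.8, 45.8, 46.9, 26.3 and 26.2 FPKM in NC and at 41.4, 37.4, 38.7, 33.8, 35.1 and 24.0 FPKM in COM. The groups overlapped. The change was -0.12, with a 95% interval of -0.51 to 0.28 (limma adjusted p = 0.603), and it was 0.19 after median-of-ratios scaling, 0.06 without COM-4 to COM-6 and -0.37 (limma adjusted p = 0.0584) without NC-5 and NC-6.

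Markers of other cell types moved between these groups as well. The dendritic cell list summed to 7.63 to 31.6 FPKM in NC, 64.1 to 225 in COM and 38.9 to 76.4 in COM+Met over 10 genes, most of it from Ccr7 (9.94, 133 and 55.7 FPKM on average), a chemokine receptor that activated myeloid cells also use. In COM, 4 of the 10 averaged at least 1 FPKM (Flt3, Zbtb46, Clec9a and Ccr7) and Cd209a was at 0. Clec9a (3.40 FPKM in NC, 2.37 in COM), Clec10a (2.94 and 0.0441), Itgae (0.796 and 0.135) and Kmo (0.801 and 0.0559) were lower on average in COM than in NC. Flt3 and Zbtb46 were higher in COM. Flt3 averaged 0.370 FPKM in NC, 2.49 in COM and 0.896 in COM+Met, and Zbtb46 0.978, 1.70 and 0.613. Neutrophil markers summed to 395 to 597 FPKM in NC, 34.2 to 330 in COM and 19.5 to 45.5 in COM+Met, with Elane, Mpo and Retnlg at 0 in both of the latter. S100a8 averaged 254 FPKM in NC, 169 in COM and 23.5 in COM+Met, and Camp 4.33, 7.93 and 3.08. Other markers of the list fell further in COM. S100a9 averaged 171 FPKM in NC, 8.43 in COM and 1.30 in COM+Met, and Ngp 30.9, 1.60 and 0.161. Mast cell and basophil markers summed to 10.6 to 20.8 FPKM in NC and at most 1.41 in COM and 0.0900 in COM+Met, and stromal markers to 13.9 to 58.9 in NC, 1.42 to 30.2 in COM and 0.0598 to 3.22 in COM+Met. Tubular epithelial markers summed to 10.9 to 18.2 FPKM in NC and at most 1.37 in COM and 0.332 in COM+Met. Most of the NC sum was Cdh1 (12.9 FPKM on average), and Umod, Krt18 and Havcr1 were at 0 there. Epcam averaged 0.879 FPKM in NC, 0.186 in COM and 0.0230 in COM+Met, and Aqp1 0.550, 0.0141 and 0.0130. B cell markers summed to at most 0.322 FPKM in any sample. The part of these cells in the results above and below was not tested.

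The comparison of COM+Met with COM asked what Met changed in macrophages exposed to crystal-treated TECs. The IL-12 subunits moved in opposite directions, with Il12b lower and Il12a higher in COM+Met. Il23r and Il10ra were lower. All 4 changes were under 2-fold on the log2(FPKM + 1) scale, though Il23r fell by more than 2-fold in the ratio of means (0.400). The Il15 and Il27 differences depended on which COM samples were used.

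Of the 10 genes, 8 again reached the filter, Il10 and Il23a not. None of the 8 was called, against 0.608% of the 10364 genes tested called higher and 1.61% called lower, where 6 of the 8 had an unadjusted limma p below 0.05, against 28.6% of all genes. By the adjusted p alone, 1 was higher and 3 lower, against 5.77% and 7.58% of all genes. The groups did not overlap for 2, both lower in COM+Met, against 5.34% of the genes tested, and for 0 in the other direction, against 5.83%. The median change of all genes was 0.00.

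Il12b fell to 151, 115, 93.8, 110, 132 and 119 FPKM in COM+Met-1 to COM+Met-6, below the lowest COM sample. The change was -0.61 (SE 0.12, limma adjusted p = 0.00623), a ratio of means of 0.655. The p40 gene was still the highest of the 10 in COM+Met.

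Il12a was at 27.2, 36.7, 37.8, 39.6, 37.9 and 34.5 FPKM in COM+Met. COM+Met-1 lay within the COM range and the other 5 above it. The change was 0.47 (SE 0.11, limma adjusted p = 0.0121), a ratio of means of 1.40. The ratio of Il12b to Il12a was 2.48 to 5.55 in COM+Met (median 3.28) and did not overlap the 5.69 to 9.62 of COM (median 6.89). With all 18 samples in 1 fit, which shares the wide spread of NC, the limma adjusted p was 0.134 for Il12a and 0.348 for Il12b.

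Il23a was at 0.0295, 0, 0.0487, 0, 0.0739 and 0 FPKM in COM+Met, listed at 0 in 3 samples. The difference from COM was -0.24 (two-sided exact permutation p = 0.00649) between levels that are all under 0.35 FPKM. The IL-23 pair thus had 1 subunit gene above 90 FPKM and the other near 0 in all 12 samples.

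Il23r was at 2.58, 2.25, 2.31, 2.33, 1.67 and 2.76 FPKM in COM+Met, below every COM sample. The change was -0.97 (SE 0.19, limma adjusted p = 0.00544), with a ratio of means of 0.400. The log2 change ran from -1.04 to -0.79 when 1 sample was left out. It reached 2-fold without COM-1 to COM-3 (-1.26) and without COM-1, COM-2, COM-3 or COM+Met-6 alone (-1.03, -1.02, -1.04 and -1.01). The fall was smaller without COM-4 to COM-6, the COM samples with the highest Il23r. Over all alternatives, other pseudocounts among them, the change ran from -1.26 to -0.53, and its limma adjusted p stayed below 0.05. The dendritic marker sum, mostly Ccr7, ran from 64.1 to 225 FPKM in COM and from 38.9 to 76.4 in COM+Met. The lymphoid marker sum ran from 0.554 to 1.70 FPKM in COM and from 0.581 to 0.913 in COM+Met. A part of such cells in the Il23r change was not tested.

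Il10ra was at 25.3, 23.3, 22.9, 24.9, 21.6 and 23.9 FPKM in COM+Met, where the samples lay close together. COM-6 was the only COM sample inside that range. The change was -0.53 (SE 0.12, limma adjusted p = 0.0103), and it was -0.36 (limma adjusted p = 0.0532) without COM-1 to COM-3. Its ligand gene Il10 was at 0.578, 0.359, 0.736, 0.704, 0.397 and 0.459 FPKM in COM+Met. The difference of Il10 from COM was -0.53 (two-sided exact permutation p = 0.0563). It was -0.97 (exact permutation p = 0.0119) without COM-1 to COM-3, -0.68 (exact permutation p = 0.00649) without COM-1 and -0.62 (exact permutation p = 0.0325) without COM-2.

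Il6 was at 19.8, 17.6, 14.7, 18.6, 18.1 and 15.9 FPKM in COM+Met, overlapping COM at its lower end. The change was -0.34 with a 95% interval of -0.63 to -0.04 (limma adjusted p = 0.125). Ebi3 ranged from 58.8 to 79.2 FPKM with a median of 63.6, and its change was -0.30 with an interval of -0.56 to -0.03 (limma adjusted p = 0.127). It passed the adjusted threshold without COM-6 (-0.35, limma adjusted p = 0.0391).

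Il27 was at 14.2, 16.3, 16.1, 13.6, 14.6 and 14.6 FPKM in COM+Met, between the low and the high COM samples. The change was 0.79 with a 95% interval of -0.09 to 1.67 (limma adjusted p = 0.224). It was 0.07 (limma adjusted p = 0.902) without COM-1 to COM-3, 1.5 (limma adjusted p = 8.82e-09) without COM-4 to COM-6 and 1.08 (limma adjusted p = 0.0494) without COM-4.

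Il15 was at 25.5, 19.5, 20.6, 20.04, 18.1 and 19.5 FPKM in COM+Met, above COM-1 to COM-3 and close to COM-4 to COM-6. The change was 0.84 with a 95% interval of -0.09 to 1.76 (limma adjusted p = 0.218). It was 1.88 (limma adjusted p = 2.00e-07) without COM-4 to COM-6 and turned to -0.21 (limma adjusted p = 0.155) without COM-1 to COM-3. Whether Il15 and Il27 were higher in COM+Met than in COM therefore rested on the COM samples taken.

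**Figure D3:**
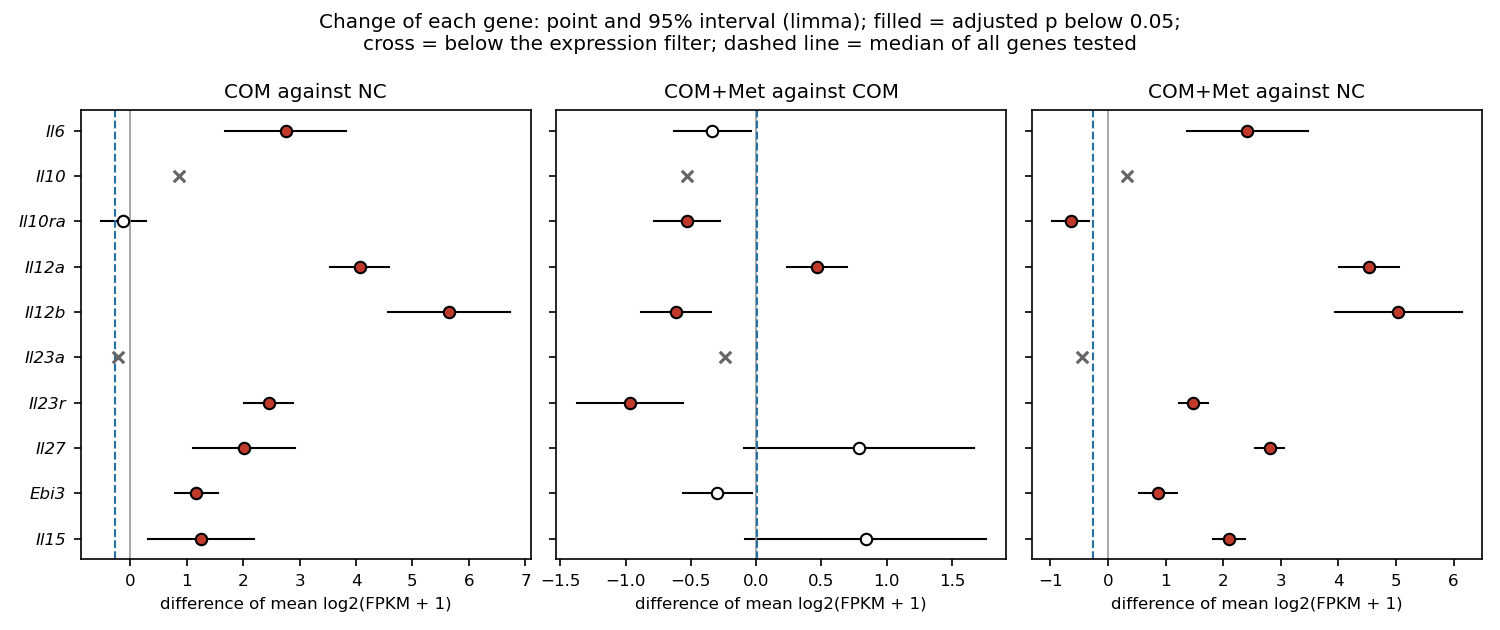
Differences of mean log2(FPKM + 1) of the 10 genes in the 3 comparisons (horizontal axes differ between panels). Filled points have a limma adjusted p below 0.05, bars are 95% intervals, crosses are Il10 and Il23a, which were below the filter, and the dashed line is the median of all genes tested. In COM+Met against COM, Il12a lies to the right of 0 and Il12b, Il23r and Il10ra to the left.

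The comparison of COM+Met with NC used the same NC and COM+Met samples as the comparisons above, so its values are set beside theirs and are no separate evidence. Of the 10 genes, 8 reached the filter, 6 were called higher and 0 lower, against 5.66% and 13.6% of the 10786 genes tested. Il12a and Il23r passed the filter only through COM+Met. The groups were apart and higher for 7, against 14.1% of all genes, and apart and lower for 1, Il10ra, against 43.6%. By adjusted p alone 1 was lower, against 55.9%.

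Il12b was 5.04 (SE 0.51, limma adjusted p = 1.24e-06) and Il12a 4.53 (SE 0.24, limma adjusted p = 2.88e-09) above NC, where COM had been 5.65 and 4.06 above it. Il6 was 2.42 above NC (limma adjusted p = 0.000562), Il23r 1.48 (limma adjusted p = 1.46e-07) and Il27 2.81 (limma adjusted p = 3.74e-10). Il15 was 2.10 above NC (SE 0.12, limma adjusted p = 8.13e-09), without overlap. Ebi3 was 0.87 above NC (limma adjusted p = 0.000173), short of 2-fold, and 1.18 after median-of-ratios scaling.

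Il10ra was 0.611 of its NC level in COM+Met, with every COM+Met sample below the lowest NC sample. The change was -0.65 (SE 0.15, limma adjusted p = 0.0015), or -0.39 relative to the median change of -0.26 over all genes, and it was -0.34 (limma adjusted p = 0.0527) after median-of-ratios scaling. Il10 differed from NC by 0.34 (two-sided exact permutation p = 0.0216), with an exact permutation p of 0.0519 without COM+Met-3 or COM+Met-4 and 0.0952 without NC-5 and NC-6. Il23a differed by -0.45 (two-sided exact permutation p = 0.0476, but 0.0571 when adjusted over the 30 member and comparison pairs). Its unadjusted exact permutation p was 0.0563 without COM+Met-2, COM+Met-4 or COM+Met-6. For Il10 and Il23a, calls against NC thus changed with single samples.

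The receptors and signalling genes of these cytokines were taken from 10 lists holding 78 genes, of which 62 were tested in COM against NC. Of the 62, 13 were called higher and 4 lower, beside the 5.99% and 11.7% of all genes tested. In the list of the IL-15 receptor and the common gamma chain receptors, 3 of 6 tested genes were called higher and 0 lower, and the list median was 1.43 against -0.27 for all genes. In the IL-6 and IL-27 receptor list, 2 of 3 tested genes were called lower, 0 higher, and the median was -1.05.

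For IL-6, the binding and the signalling chain of the receptor were lower in COM, where the ligand gene was higher. Il6ra, the IL-6 binding chain, was at 11.1 ± 2.10 FPKM (SD, n = 6) in NC, 4.0 ± 1.03 in COM and 2.18 ± 0.112 in COM+Met. Its change was -1.28 in COM (limma adjusted p = 3.17e-05) and -1.91 in COM+Met against NC (limma adjusted p = 3.37e-09). Il6st, which encodes the shared signal transducer gp130, went from 12.5 ± 5.04 to 5.15 ± 1.05 FPKM in COM (-1.05, limma adjusted p = 0.00396), and its change was -0.82 (limma adjusted p = 0.0603) without COM-4 to COM-6 and -0.77, under 2-fold, after median-of-ratios scaling. Of the other IL-6 family ligands, 3 of 6 were tested in COM against NC and none was called.

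For IL-12, the receptor chains moved apart. Il12rb2, the signalling chain of the IL-12 receptor, was at 7.10 ± 1.55 FPKM in NC, 1.07 ± 0.424 in COM and 1.04 ± 0.0916 in COM+Met, a change of -1.97 against NC in both groups (limma adjusted p = 1.12e-06 and 4.72e-09). Il12rb1, the chain shared with IL-23, was at 1.22 ± 0.750 FPKM in NC, 4.17 ± 3.44 in COM and 4.68 ± 0.873 in COM+Met. Its change was 1.05 in COM (limma adjusted p = 0.0319) but 0.43 (limma adjusted p = 0.235) without COM-4 to COM-6 and 0.72 (limma adjusted p = 0.165) without NC-5 and NC-6. It was 1.42 in COM+Met against NC (limma adjusted p = 5.17e-05).

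For IL-15, the presenting receptor chain Il15ra was at 3.91 ± 0.476 FPKM in NC, 22.2 ± 13.4 in COM and 23.6 ± 3.09 in COM+Met. Its change was 2.03 in COM (limma adjusted p = 0.000256) and 2.32 in COM+Met against NC (limma adjusted p = 1.35e-10). Il21r, the IL-21 receptor, rose by 2.02 in COM (limma adjusted p = 0.0097), with 1.86 (limma adjusted p = 0.0651) without COM-1 to COM-3, and by 1.80 in COM+Met against NC (limma adjusted p = 0.00995), with 0.83 without NC-5 and NC-6. Il7r, the IL-7 receptor, was 0.92 higher in COM than in NC (limma adjusted p = 0.028), short of 2-fold. It was called in COM+Met against NC (1.23, limma adjusted p = 0.000201), with 0.88 without NC-5 and NC-6. Il2ra, the high-affinity IL-2 receptor chain, was at 0.931 ± 0.662 FPKM in NC, 6.42 ± 3.15 in COM and 2.0 ± 0.443 in COM+Met. It rose by 1.93 in COM (limma adjusted p = 0.000108) and fell by 1.24 from COM to COM+Met (limma adjusted p = 0.00286).

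For IL-10, no other ligand of the family (4 genes) reached the filter. Of the 5 other receptor genes 2 were tested and none was called. Of 10 genes that IL-10 and STAT3 are known to raise in macrophages, 2 were called higher in COM and 0 lower. Of all genes tested, 5.99% were called higher and 11.7% lower, and the list median was 0.23 against -0.27. The 2 called genes were Socs3 and Il1rn, the IL-1 receptor antagonist. Il1rn was at 249 ± 67.1 FPKM in NC, 558 ± 294 in COM and 247 ± 33.1 in COM+Met. Its rise of 1.02 in COM (limma adjusted p = 0.0197) was 0.30 (limma adjusted p = 0.243) without COM-4 to COM-6 and 0.81 (limma adjusted p = 0.102) without NC-5 and NC-6. Its change from COM to COM+Met was -1.0 (limma adjusted p = 0.047), -0.28 without COM-4 to COM-6 and -0.98 (limma adjusted p = 0.0828) after median-of-ratios scaling.

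All 11 Janus kinase and STAT genes were tested. Of these, 4 were called higher in COM and 0 lower, beside 5.99% and 11.7% of all genes tested. The list median was 0.60 against -0.27 for all genes. Stat4, which carries the IL-12 signal, was at 0.191 ± 0.150 FPKM in NC, 8.55 ± 2.84 in COM and 2.85 ± 0.447 in COM+Met. It rose by 2.95 in COM (limma adjusted p = 1.53e-07) and fell by 1.26 from COM to COM+Met (limma adjusted p = 0.00106). Jak2, used by the IL-12 and IL-23 receptors, rose from 28.1 ± 11.9 to 134 ± 40.2 FPKM in COM (2.29, limma adjusted p = 3.13e-05) and stood at 98.0 ± 4.42 in COM+Met. Stat2 was 2.26 above NC in COM (limma adjusted p = 3.48e-05) and 2.47 above it in COM+Met (limma adjusted p = 3.79e-09).

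Of 10 feedback inhibitor genes, 3 were called higher in COM and 0 lower, beside 5.99% and 11.7% of all genes tested. The list median was -0.04 against -0.27 for all genes. Socs1, an inhibitor of Janus kinases, went from 2.13 ± 1.33 to 14.8 ± 8.87 FPKM (2.26, limma adjusted p = 0.000535). Socs3, the inhibitor that binds gp130, went from 15.1 ± 8.96 to 58.1 ± 39.5 FPKM (1.90, limma adjusted p = 0.00641), with 1.38 (limma adjusted p = 0.0546) without COM-4 to COM-6. Socs2 was at 4.0 ± 1.23 FPKM in NC, 9.45 ± 3.24 in COM and 3.43 ± 1.15 in COM+Met. It rose by 1.03 in COM (limma adjusted p = 0.00309) and fell by 1.20 to COM+Met (limma adjusted p = 0.00507), and both changes were under 2-fold without COM-1 to COM-3 (0.70 and -0.87), as was the rise without NC-5 and NC-6 (0.80).

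Of 18 transcription factor genes known to act on these cytokine genes, 17 were tested. In COM, 1 was called higher and 1 lower, beside 5.99% and 11.7% of all genes tested, with a list median of 0.05. The list thus did not stand out from all genes by its number of calls. Irf1, an activator of Il12a and Il15, went from 33.7 ± 11.4 FPKM in NC to 75.4 ± 29.4 in COM (1.13, limma adjusted p = 0.0053) and 118 ± 15.4 in COM+Met. Its rise in COM was 0.66 (limma adjusted p = 0.0776) without COM-4 to COM-6 and 0.78, under 2-fold, without NC-5 and NC-6. Fos, an AP-1 subunit, went from 19.4 ± 2.18 to 4.59 ± 0.720 FPKM (-1.87, limma adjusted p = 6.38e-08) and to 2.80 ± 0.242 in COM+Met. Batf was at 12.7 ± 1.39 FPKM in NC, 13.9 ± 4.90 in COM and 28.6 ± 3.46 in COM+Met, and it rose by 1.05 from COM to COM+Met (limma adjusted p = 0.00366), or 0.66 without COM-1 to COM-3. Irf4 was lower in COM+Met than in NC (-1.07, limma adjusted p = 0.00363), and by -0.87, under 2-fold, after median-of-ratios scaling.

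Over the 10 lists, COM+Met against COM gave 1 gene called higher (Batf) and 4 lower (Il2ra, Stat4, Socs2 and Il1rn) of 62 tested, beside 0.608% and 1.61% of all genes. COM+Met against NC gave 13 higher and 4 lower of 61, beside 5.66% and 13.6% of all genes. Without NC-5 and NC-6 the latter were 10 and 6, and in COM against NC 9 and 4.

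**Figure D4:**
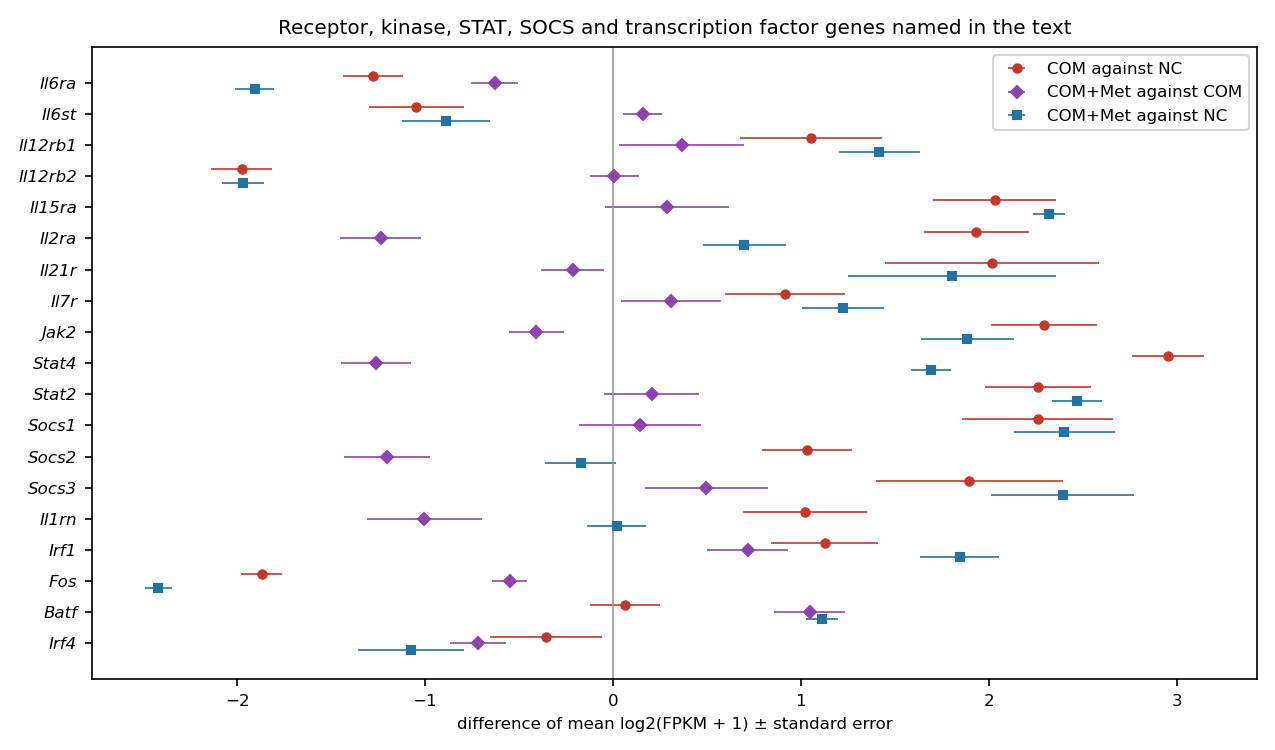
Differences of mean log2(FPKM + 1) ± SE for the receptor, kinase, STAT, SOCS and transcription factor genes named in the text, in COM against NC (circles), COM+Met against COM (diamonds) and COM+Met against NC (squares). Stat4, Jak2, Socs1 and Il15ra lie to the right of 0 against NC, Il6ra, Il12rb2 and Fos to the left, and Il2ra, Stat4, Socs2 and Il1rn lie to the left in COM+Met against COM.

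The genes whose profile over the 18 samples was nearest to each member were ranked by the root mean square distance between profiles of log2(FPKM + 1) scaled to the same mean and SD, among the 10741 genes that averaged 1 FPKM or more. These are descriptions, since all genes share the same libraries. For Il12b they were Cd38 (distance 0.12), a NAD-consuming ectoenzyme, Acsl1 (0.137) and Ntng2 (0.152). For Il12a they were an unnamed transcript of the table, Ccl5 (0.129), a T cell-attracting chemokine, and Irf7 (0.129), an interferon regulatory factor. Ccl5 averaged 8.81 FPKM in NC, 5866 in COM and 8056 in COM+Met. For Il6 they were Aoah (0.127), an enzyme that inactivates endotoxin, the gene Met (0.148), which encodes the hepatocyte growth factor receptor and is not the agent Met, and Fpr2 (0.174), a formyl peptide receptor.

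For Il23r they were an unnamed transcript, Adgb (0.185) and Sppl2a (0.190), and for Il27 they were Tap2 (0.154), a peptide transporter of antigen presentation, Rnf31 (0.162) and H2-Q4 (0.182), an MHC class I gene. For Il15 they were Clic5 (0.178), Gbp11 (0.211), a guanylate-binding protein gene, and Parp11 (0.232). For Ebi3 they were Trpm2 (0.269), Perm1 (0.287) and AA467197 (0.294), and for Il10ra Itgam (0.290), the CD11b integrin chain, H2-DMb2 (0.359) and Rhob (0.367). Among the members themselves, the nearest pair was Il12a and Il12b (0.25), Il15 was nearest to Il27 (0.483), and Il10ra was far from all (1.47 to Ebi3, its nearest).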

How the data were processed

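The 18 samples were RNA-seq libraries of BMDMs from TruSeq preparations of total RNA, in 3 groups of 6 taken from the labels. The authors deposited 1 table of FPKM values for 25926 genes, not raw counts. Per the submitters' processing notes, the builds were mm8 and mm9, and a tool was Bowtie (version 0.12.2). The tool behind the FPKM values, its annotation and its use of strand were not given in the sources used here. FPKM depends on the transcript models used and on the other genes of a library, so a change in abundant genes shifts the rest. Low values were checked for steps of whole reads: at most 0.417% of genes shared a common ratio, so reads were not recovered and the depth is unknown. All 18 sample columns were used. Positions are from GENCODE M21 (GRCm38), matched by Ensembl identifier, and are not those of the authors' build. Of the 22036 Ensembl identifiers, 22022 were found there.

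Differences of log2(FPKM + 1) were tested with limma 3.58.1 (R 4.3.3, empirical Bayes with a trend), each comparison in a fit of its own 12 samples, on genes averaging 1 FPKM or more over these, with Benjamini-Hochberg adjustment over all genes tested. limma was checked on simulated data in which both groups of a gene had the same spread. That check does not cover unequal spreads, such as those of Il15 and Il27 in COM and NC. Genes under the filter had a two-sided exact permutation test of 6 against 6, whose smallest p is 0.00216. Exact p are unadjusted unless stated. With Benjamini-Hochberg adjustment over the 30 member and comparison pairs, Il23a in COM+Met against NC no longer passed 0.05 (0.0571). The other comparisons of Il10 and Il23a stayed on the same side of it. Tables and figures were made with Python 3.11.15, pandas 2.3.3 and matplotlib 3.10.9.

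The 10 members, the lists and the tests were chosen with earlier results of these data known. Named were all members, and from each pathway list the called genes, at most the 3 largest rises and 3 largest falls per comparison. Further named were the 3 nearest profiles of each member that averaged 1 FPKM or more and the highest marker of each marker list. Some items that this rule names are not reported here. Other markers named were chosen after their values were seen. Of the 148 list genes, 1 was not found. Alternatives were other pseudocounts, filters, scalings, sample weights, a replicate block, all samples in 1 fit and left-out samples, and for the pathway genes they were added after the data were seen.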

Additional observations from a re-analysis of the deposited data

Results flagged for a closer look

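In 30 sets of 6 samples (10 genes in 3 groups), Dixon's test on log2(FPKM + 1) marked 4 sets, each with a sample far from the others of its group, and these were 2 distinct samples. Chance marks about 1 set in 20. Il23r in COM-6 was at 11.1 FPKM, above the other COM samples, which ran from 4.08 to 5.70. COM+Met-1 was marked for 3 genes: Il12a at 27.2 FPKM was the lowest of its group, and Ebi3 at 79.2 FPKM and Il15 at 25.5 FPKM were the highest of theirs. Il12b was also highest in COM+Met-1, at 151 FPKM, without being marked.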

How the results depend on the processing

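Log2 changes of single genes kept their direction and their side of the threshold of 0.05 on the adjusted p (the exact p for Il10 and Il23a), whatever their fold, in 659 of the alternatives tried, missed that threshold in 18, passed it only there in 13 and reversed in 3. The reversals were Il10ra in COM against NC, at 0.19 with median-of-ratios size factors and 0.056 without COM replicates 4 to 6, and Il15 in COM+Met against COM, at -0.21 without COM replicates 1 to 3. In COM+Met against COM, the number of members called was 0, but 1 with a pseudocount of 0.1 FPKM, with TPM and without COM replicates 1 to 3, in each case Il23r, and 2 with sample weights and without COM replicates 4 to 6, in each case Il15 and Il27. Leaving out 1 sample gave 0 to 1. Members with an adjusted p below 0.05 numbered 4, but 2 with all 18 samples in 1 fit and 8 with sample weights, and 4 to 5 when 1 sample was left out. In COM against NC, 7 members were called, but 5 with sample weights and without NC replicates 5 and 6, as Ebi3 (0.93 and 0.94) and Il15 were lost. Leaving out 1 sample gave 6 to 7, Il15 being lost, and in COM+Met against NC 6 in every case. With sample weights the Il15 change in COM against NC was 0.40 (limma adjusted p = 0.118).

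Same-numbered samples did not deviate together (correlations of -0.222 to 0.0569), and no more than 1 of 6 correlated best with its own number. The replicate block left the members called at 7 in COM against NC, 0 in COM+Met against COM and 6 in COM+Met against NC, and it moved the pathway genes called higher in COM against NC from 13 to 11, with Il12rb1 and Il1rn lost. Over all genes, COM+Met against NC gave 611 higher and 1467 lower calls as deposited and 839 and 985 with median-of-ratios size factors. The depth is unknown, so no counting interval could be given.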
